A study of Mus musculus with 6 samples.

Results

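A set of 10 cytochrome c oxidase genes was followed in mouse inguinal white adipose tissue (iWAT), the subcutaneous depot at the groin, after cold acclimation. They were chosen by name as subunit isoforms of tissue-restricted or ubiquitous expression, with earlier results of these data known. All 10 were among the 16538 genes listed. The restricted isoforms were Cox7a1, Cox8b, Cox6a2 and Cox4i2. The ubiquitous forms were Cox7a2, Cox8a, Cox6a1 and Cox4i1, together with Cox7a2l and Cox5a. Bulk RNA-Seq, which counts sequencing reads per gene, was available for 3 control samples (labelled wt, and described in the study's text as fl/fl littermates with a floxed Nrg4 gene) and 3 samples of NRG4-AKO mice, in which Adiponectin-Cre deletes floxed Nrg4 in adipocytes. Both genotypes stayed in the cold at 8°C, and the labels give 10 days. A longer stay is described in the text of the publication. Their age and sex were not given in the sources used here, and RNA of 2 mice was combined in every sample. The deletion is limited to adipocytes, whereas bulk iWAT also holds vessels, immune cells and other tissue, so a smaller number of cells of a type and less RNA per cell cannot be told apart. Values are normalized counts, the read count of a gene divided by a size factor of the sample.

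Cytochrome c oxidase, or complex IV, is the last enzyme of the mitochondrial respiratory chain. It passes electrons from cytochrome c to oxygen and pumps protons across the inner membrane. Its catalytic core is encoded by the mitochondrial genome and is surrounded by small nuclear-encoded subunits that support assembly and tune activity. Several of these subunits exist as a ubiquitous form and as a form of heart and skeletal muscle, and brown fat also expresses the muscle forms Cox7a1 and Cox8b. Beige adipocytes are the brown-like cells that appear in iWAT during cold exposure.

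The 4 upstream sequences below show how the promoters of the isoforms that were lower in AKO iWAT compare with those of their ubiquitous counterparts. Each is the run of 250 bases before the RefSeq transcript start on GRCm38.p6, written 5′ to 3′ on the strand of the gene, and capitals mark CG dinucleotides. Sequences were matched for 7 of the 10 genes. The Cox7a1 window is chr7:30183921-30184170 on the plus strand. The Cox8b window is chr7:140900447-140900696, the Cox7a2 window chr9:79759854-79760103 and the Cox8a window chr19:7217617-7217866, all on the minus strand.
Cox7a1: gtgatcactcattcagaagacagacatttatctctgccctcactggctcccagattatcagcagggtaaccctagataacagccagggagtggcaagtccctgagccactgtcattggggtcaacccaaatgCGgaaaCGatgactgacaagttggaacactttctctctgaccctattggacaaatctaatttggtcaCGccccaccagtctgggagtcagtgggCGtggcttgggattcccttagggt
Cox8b: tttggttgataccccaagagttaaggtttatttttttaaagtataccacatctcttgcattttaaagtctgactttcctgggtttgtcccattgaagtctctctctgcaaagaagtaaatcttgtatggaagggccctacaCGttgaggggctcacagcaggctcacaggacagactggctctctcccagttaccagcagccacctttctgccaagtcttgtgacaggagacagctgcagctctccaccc
Cox7a2: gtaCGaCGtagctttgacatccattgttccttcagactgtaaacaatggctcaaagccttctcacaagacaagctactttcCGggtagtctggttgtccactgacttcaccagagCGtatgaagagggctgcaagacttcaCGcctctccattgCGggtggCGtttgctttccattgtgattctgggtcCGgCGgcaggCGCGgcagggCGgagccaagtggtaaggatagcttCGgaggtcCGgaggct
Cox8a: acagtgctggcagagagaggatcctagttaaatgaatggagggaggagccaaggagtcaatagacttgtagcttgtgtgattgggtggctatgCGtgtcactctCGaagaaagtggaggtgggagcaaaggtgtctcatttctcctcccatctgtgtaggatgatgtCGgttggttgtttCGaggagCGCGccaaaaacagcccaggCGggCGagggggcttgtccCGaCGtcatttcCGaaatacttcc

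Upstream of Cox8b there was 1 CG and upstream of Cox7a1 there were 4, against 14 for Cox7a2 and 11 for Cox8a. The ratio of observed to expected CG content was 0.0726 for Cox8b and 0.244 for Cox7a1, compared with 0.751 for Cox7a2 and 0.676 for Cox8a. Among 27025 promoters of the same length the median ratio was 0.378 (quartiles 0.165 and 0.726). The windows of Cox7a2l (0.778), Cox6a1 (1.06) and Cox5a (1.08) were also above that median, so the 5 ubiquitous genes with a sequence all lay above it and the 2 restricted genes lay below it. Of the motifs searched on both strands, Cox8b held a single CAGCTG, an E-box of the type bound by myogenic factors, from base 19 to base 14 before the start, and 12.8% of all promoters held this motif. Cox6a1 held an NRF1 motif (GCGCA followed by its reverse complement), which 0.781% of promoters held, and a reverse copy of the ETS motif CCGGAAG, which 7.05% held. None of the 7 windows held TCAAGGTCA (0.366% of promoters), the nuclear receptor site AGGTCA (13.8%), a direct repeat of AGGTCA with 1 base between the copies (0.037%) or the CRE TGACGTCA (1.62%). These matches describe the letters only.

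Sequencing depth varied little, with between 17570335 and 18373707 reads assigned to listed genes per sample. Adipocyte markers were high in every sample. Their summed level over 13 genes, led by Fabp4, Lpl and Cfd, ranged from 868037 to 889922 normalized counts in control and from 736404 to 839324 in AKO. Nrg4, the deleted gene, had 3128, 3102 and 3092 normalized counts in control and 2577, 2627 and 2691 in AKO. The genotypes did not overlap, with a log2 fold change of -0.24 (limma, adjusted p = 0.298), and counts over the whole gene do not resolve the deleted part. By qPCR, the study reports Nrg4 mRNA as nearly absent from AKO iWAT. The summed level of 28 skeletal muscle genes ranged from 797 to 33653 normalized counts in control and from 24958 to 141907 in AKO, with control replicate 1 lowest and AKO replicate 3 highest. Of 26 muscle genes tested, 23 were higher in AKO and none was called by limma or DESeq2. Lymphocyte and mammary epithelial genes were uneven between samples of both groups, from 74.2 to 1024 and from 9.68 to 1213 normalized counts in sum. Macrophage genes summed to between 10595 and 14990 normalized counts in control and between 13033 and 17930 in AKO, with 8 of 8 higher and none called by limma or DESeq2. The part of these other cells in the isoform results was not tested, except for muscle RNA as given for Acta1 in the comparisons that follow.

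Cox7a1 and Cox8b were lower in AKO iWAT, and their groups did not overlap. Cox7a1 encodes the heart and muscle form of subunit VIIa and is a common marker of thermogenic fat. The study had already named this gene among those lower in AKO iWAT, in the same RNA-Seq and by qPCR. Cox7a1 lies on the plus strand of chromosome 7 of GRCm38 from 30184144 to 30186078, with 535 exonic bases. The control samples held 453, 751 and 518 normalized counts of Cox7a1 and the AKO samples 212, 285 and 310. Every AKO sample was thus below every control sample, and control replicate 2 was the highest of the 6. The control mean of 574 ± 157 (SD, n = 3) was 2.13 times the AKO mean of 269 ± 51.0 (SD, n = 3).

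Cox8b encodes the heart and muscle form of subunit VIII. It lies on the minus strand of chromosome 7 from 140898945 to 140900446, with 360 exonic bases. Its values were 2661, 3926 and 3169 normalized counts in control and 2138, 1909 and 2220 in AKO. The lowest control sample was above the highest AKO sample. The control mean of 3252 ± 637 (SD, n = 3) was 1.56 times the AKO mean of 2089 ± 161 (SD, n = 3).

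**Figure D1:**
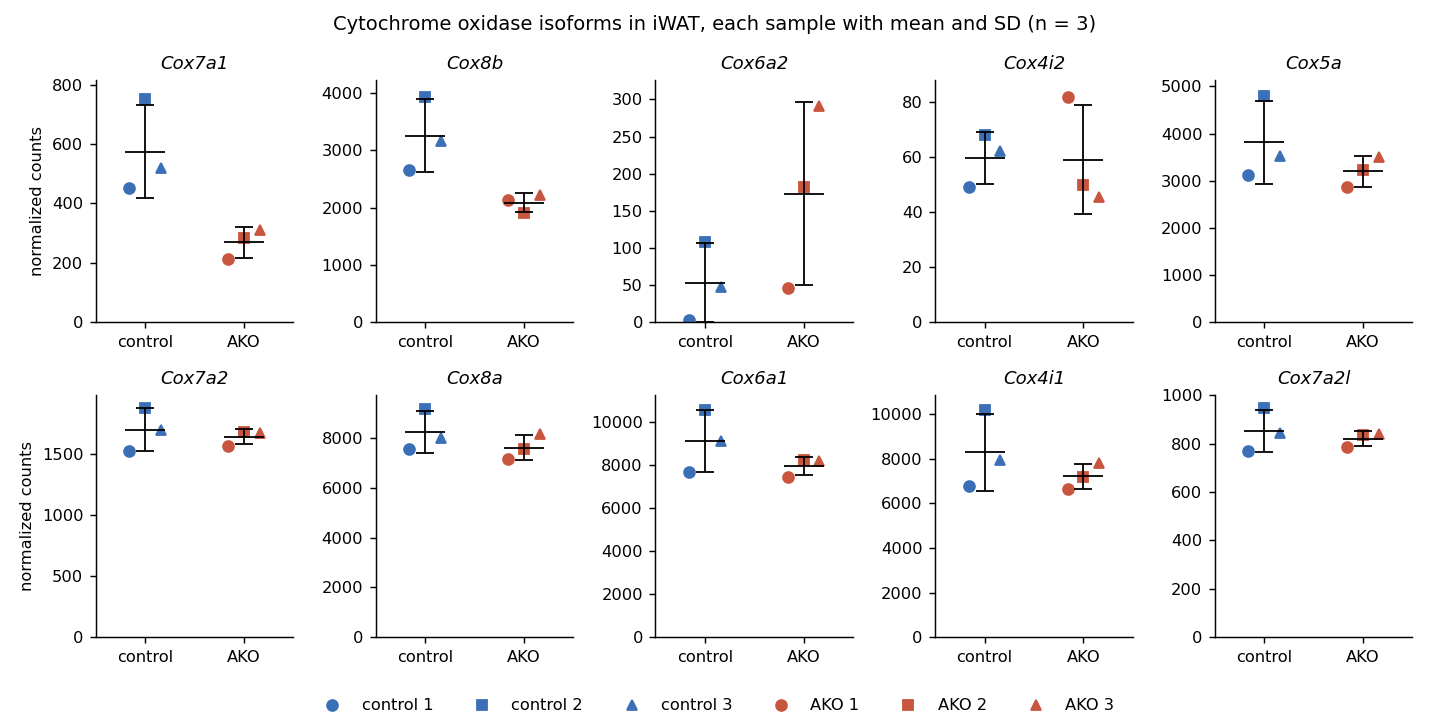
Normalized counts of the 10 genes in each of the 6 samples (vertical axes from 0, a separate scale for each gene). Symbols mark the replicate numbers, horizontal marks the mean and error bars the SD of 3 samples. Only Cox7a1 and Cox8b have no overlap of the groups, and control replicate 2 is highest in 8 of the 10 panels.

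With limma on the log2(normalized count + 1) scale, which understates the change of genes with few counts, the log2 fold change of AKO against control was -1.07 for Cox7a1 (standard error 0.21, adjusted p = 0.233). For Cox8b it was -0.62 (standard error 0.13, adjusted p = 0.295). The 95% intervals were -1.55 to -0.60 for Cox7a1 and -0.93 to -0.31 for Cox8b. Neither passed the threshold of an adjusted p under 0.05 in limma, which called 0 of the 10 genes and 0.0144% of 13855 genes tested. Before adjustment, Cox7a1 and Cox8b were the 2 of 10 with a p under 0.05, against 9.1% of all genes in either direction and 4.69% in the lower direction. Groups of AKO and control did not overlap for 14.5% of all genes, and AKO was the lower group for 8.31%. The quasi-likelihood test of edgeR and limma-voom also called 0 of the 10. DESeq2 on the recovered reads called the same 2 genes, with adjusted p-values of 2.48e-05 for Cox7a1 and 0.000334 for Cox8b, against 0.998% of all genes with an adjusted p called in either direction and 0.757% called lower. The 2-sided exact permutation test gave p = 0.1 for each, the smallest p that 3 samples against 3 allow.

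Leaving out single samples moved these differences by less than a factor of 1.5. The log2 fold change in limma lay between -1.23 and -0.86 for Cox7a1 and between -0.76 and -0.48 for Cox8b. DESeq2 called Cox8b in all 6 of these fits and Cox7a1 in 5. In the fit without control replicate 1, DESeq2 assigned no adjusted p to Cox7a1, whose log2 fold change there was -1.24 (standard error 0.23).

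The genes whose log2 values followed these isoforms most closely over the 6 samples were named as a description, since the 6 points share the genotype difference. Among 10302 genes, Slc36a2 (Pearson's r = 0.997), Cidea (r = 0.996), Pomgnt1, Acot11 and March2 were most like Cox7a1. Cidea encodes a lipid droplet protein of thermogenic fat. Mtx2 (r = 0.998), 2300009A05Rik (r = 0.994), S100a1, Acsl5 and Rmdn3 were most like Cox8b. Mtx2 encodes metaxin 2 of the mitochondrial outer membrane, and Acsl5 an acyl-CoA synthetase.

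Ucp1, the uncoupling protein of thermogenic fat, differed between the genotypes by more than either isoform. Its values were 18058, 25393 and 16827 normalized counts in control and 5401, 4836 and 7801 in AKO, with a control mean 3.34 times the AKO mean. Cox7a1 amounted to 25.1, 29.6 and 30.8 normalized counts per 1000 of Ucp1 in control and to 39.3, 59.0 and 39.8 in AKO. The AKO samples were all above the control samples in this ratio (exact permutation test, p = 0.1). For Cox8b the same ratio was 147, 155 and 188 in control and 396, 395 and 285 in AKO, again without overlap (exact permutation test, p = 0.1). Of 15 beige and brown adipocyte markers, all 15 were lower in AKO, limma called 1 and DESeq2 called 10, beside a median log2 fold change of -0.72.

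The ubiquitous isoforms differed less between the genotypes. Cox7a2 and Cox8a are the counterparts of Cox7a1 and Cox8b, and Cox6a1 and Cox4i1 those of Cox6a2 and Cox4i2. Cox5a, a subunit with no second isoform in mammals, and Cox7a2l, a relative of Cox7a2 that joins complexes III and IV in supercomplexes, completed the group. For all 6 of these genes the groups overlapped, and control replicate 2 was the highest of the 6 samples. Over all genes tested, 22.2% were highest in that sample.

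Cox7a2 (chromosome 9, 79755361 to 79759878) had 1518, 1869 and 1697 normalized counts in control and 1565, 1680 and 1671 in AKO. Its log2 fold change was -0.044 with a 95% interval from -0.24 to 0.15 (limma, adjusted p = 0.922). Cox8a (chromosome 19, 7215153 to 7217616) had 7534, 9167 and 8010 in control and 7132, 7546 and 8154 in AKO. The interval of its log2 fold change of -0.11 ran from -0.32 to 0.10 (limma, adjusted p = 0.772). Both genes had AKO samples within the range of the control samples.

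Cox6a1 (chromosome 5, 115345642 to 115348981) had 7656, 10576 and 9132 normalized counts in control and 7462, 8234 and 8188 in AKO. For Cox4i1 (chromosome 8, 120668222 to 120674207), which shares 9.94% of its exonic bases with Emc8 on the opposite strand, the values were 6778, 10185 and 7934 in control and 6667, 7167 and 7816 in AKO. In both genes, control replicates 2 and 3 were above every AKO sample and control replicate 1 lay within the AKO range.

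Cox5a (chromosome 9, 57521274 to 57532426) had 3123, 4802 and 3531 normalized counts in control and 2864, 3236 and 3511 in AKO. Cox7a2l (chromosome 17, 83501918 to 83517330) had 771, 946 and 843 in control and 786, 835 and 842 in AKO. Control replicate 1 lay within the AKO range for Cox5a, and just below it for Cox7a2l. The log2 fold changes of the 6 ubiquitous genes lay between -0.23 (Cox5a) and -0.044 (Cox7a2). Their 95% intervals together ran from -0.59 to 0.15, and the adjusted p-values from limma lay between 0.682 and 0.922. Without control replicate 2, the log2 fold changes lay between -0.072 (Cox6a1) and 0.029 (Cox7a2). Without control replicate 1, they lay between -0.37 (Cox5a) and -0.12 (Cox7a2).

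**Figure D2:**
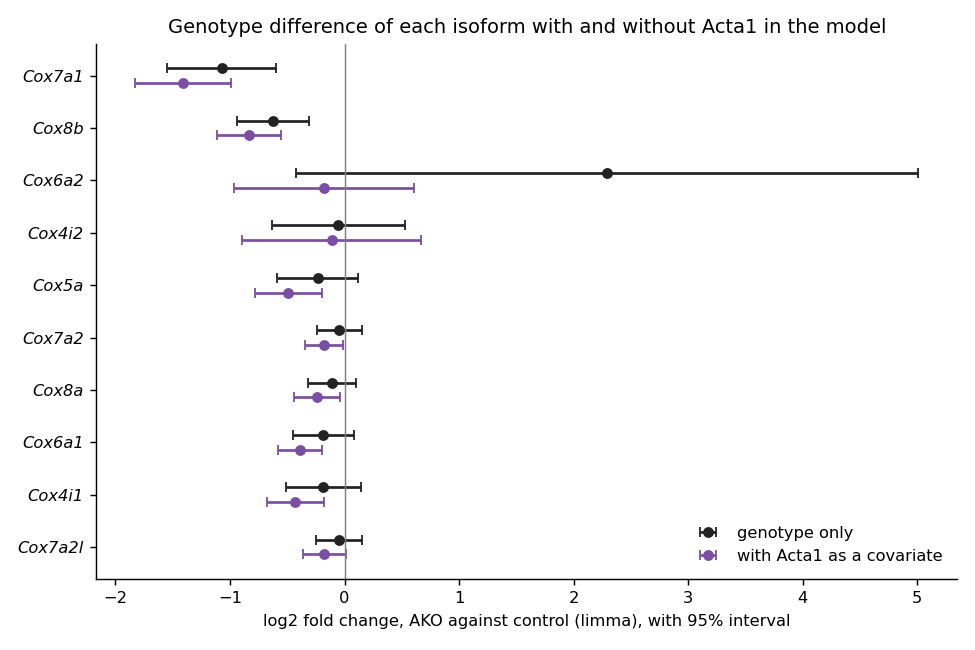
Log2 fold change of AKO against control for each of the 10 genes from limma, with 95% intervals, without a covariate (black) and with the log2 level of Acta1 in each sample as a covariate (purple). Cox7a1 and Cox8b lie below 0 in both models. Cox6a2 moves from 2.29 to -0.18 when Acta1 is added.

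The balance of isoforms within a sample does not depend on how that sample was scaled. Between Cox7a1 and Cox7a2, the log2 ratio was -1.74, -1.31 and -1.71 in control and -2.88, -2.56 and -2.42 in AKO. The AKO mean was lower by a difference of -1.03 on the log2 scale, and the groups did not overlap (exact permutation test, p = 0.1). For Cox8b against Cox8a the log2 ratio was -1.50, -1.22 and -1.34 in control and -1.74, -1.98 and -1.88 in AKO, a difference of -0.51 (exact permutation test, p = 0.1). For both ratios the highest AKO sample was below the lowest control sample. With any 1 sample left out, the differences stayed between -1.13 and -0.89 for Cox7a1 and between -0.59 and -0.45 for Cox8b. The log2 ratio of Cox6a2 to Cox6a1 was higher in AKO by 2.48 with overlapping groups (exact permutation test, p = 0.2), by 1.20 without control replicate 1 and by 0.21 with Acta1 as a covariate. For Cox4i2 against Cox4i1 the difference was 0.13 (exact permutation test, p = 0.9).

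Expressed per kilobase of exon, Cox7a1 made up 34.5%, 41.5% and 35.0% of Cox7a1 and Cox7a2 together in control, and 19.3%, 23.0% and 24.7% in AKO. The means were 37.0% ± 3.89 and 22.3% ± 2.76 (SD, n = 3 each). Cox8b made up 37.8%, 42.4% and 40.5% of Cox8b and Cox8a in control and 34.0%, 30.3% and 31.9% in AKO, with means of 40.2% ± 2.32 and 32.1% ± 1.86 (SD, n = 3 each). By this measure, which divides by all annotated exonic bases of a gene, the ubiquitous form was the larger part of both pairs in cold-acclimated control iWAT. In AKO iWAT it was more so.

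**Figure D3:**
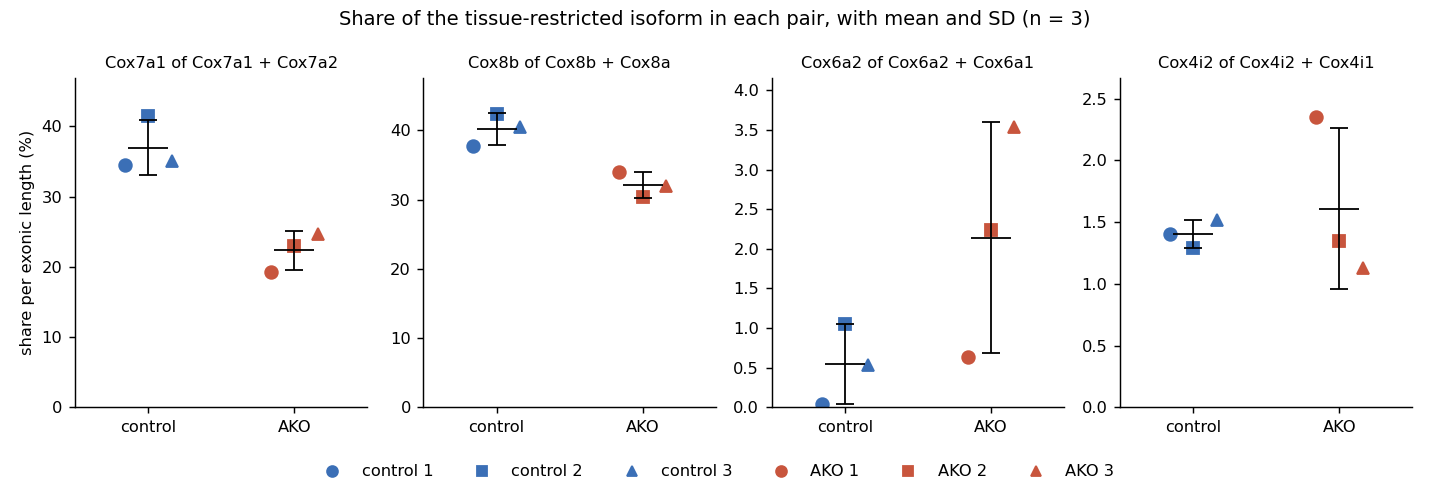
Share of the tissue-restricted isoform in each pair, as a percent of the summed level per exonic kilobase, in each sample (vertical axes from 0, a separate scale for each pair). Symbols mark replicates, horizontal marks the mean and error bars the SD of 3 samples. The shares of Cox7a1 and Cox8b in AKO lie below all control samples, and those of Cox6a2 and Cox4i2 overlap.

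Ordered by the level per exonic kilobase in control, Cox8a (13307 ± 1356 normalized counts per kilobase, SD, n = 3) and Cox6a1 (12993 ± 2080) came first, followed by Cox8b (9033 ± 1768), Cox4i1 (5354 ± 1118), Cox5a (1818 ± 417), Cox7a2 (1795 ± 186), Cox7a1 (1073 ± 293) and Cox7a2l (577 ± 59.7). Cox6a2 (78.1 ± 77.9) and Cox4i2 (75.7 ± 12.1) were lowest. The control ranges of neighbors overlapped for Cox8a and Cox6a1, for Cox6a1 and Cox8b, for Cox5a and Cox7a2, and for Cox6a2 and Cox4i2. The other neighbors in this order did not overlap. The order depends on the exonic length used, which counts every annotated exon of a gene and not the transcript expressed. Cox8b, for example, had 3252 normalized counts in control over 360 bases, and Cox4i1 had 8299 over 1550. In AKO, Cox7a1 had 503 ± 95.3 normalized counts per kilobase and Cox7a2l 555 ± 20.3 (SD, n = 3 each).

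Cox6a2, the heart and skeletal muscle form of subunit VIa, had another pattern. It lies on the minus strand of chromosome 7 from 128205435 to 128206387 and shares 10.3% of its exonic bases with Itgad on the opposite strand. Its level was 3.01, 109 and 47.8 normalized counts in control, whereas in AKO it was 46.1, 183 and 291. The groups overlapped, and the value of 3.01 in control replicate 1 stood for 3 reads. limma gave a log2 fold change of 2.29 (95% interval -0.42 to 5.01, standard error 1.17, adjusted p = 0.605). Without control replicate 1 it was 0.90.

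Cox6a2 was read beside Acta1, the actin of skeletal muscle, which had 62.2, 6536 and 3498 normalized counts in control and 4377, 15282 and 27039 in AKO. The order of Cox6a2 was the order of Acta1 within both groups, which was also the case for 5 other members (Cox7a1, Cox7a2l, Cox8a, Cox4i1 and Cox5a), and all 10 followed the order of Acta1 in control. In the 5 samples other than control replicate 1, Cox6a2 had from 10.5 to 16.6 reads per 1000 reads of Acta1. Control replicate 1 had 48.4 per 1000, from 3 reads against 62, with an exact 95% interval of 9.71 to 148 that covers counting error only. The 3 control samples were above the 3 AKO samples in this ratio (exact permutation test, p = 0.1). With Acta1 as a covariate in limma, the genotype difference of Cox6a2 was -0.18 (95% interval -0.97 to 0.61), and Cox6a2 was higher by 0.72 (standard error 0.059) on the log2 scale per doubling of Acta1. Among the genes most like Cox6a2 over the 6 samples were Sypl2 (r = 0.995), Casq1 (r = 0.993), Cacna1s and Mypn, of which Casq1 and Cacna1s encode calcium-handling proteins of skeletal muscle, and r with Acta1 itself was 0.988.

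**Figure D4:**
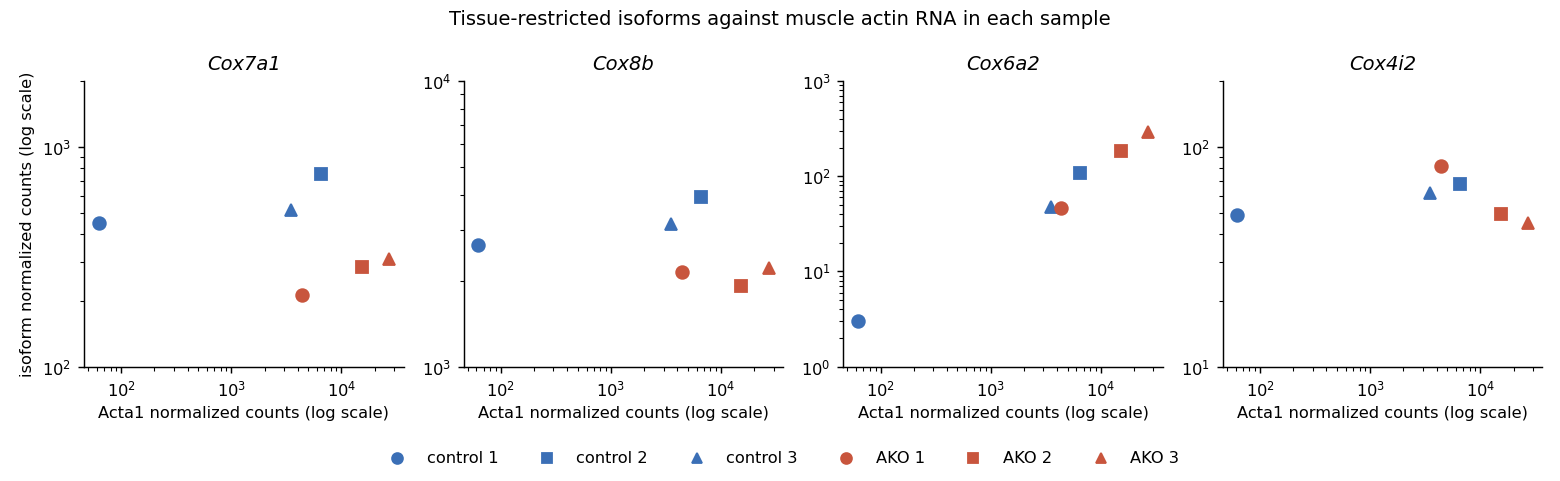
Normalized counts of Cox7a1, Cox8b, Cox6a2 and Cox4i2 against those of Acta1 in each sample, both axes on a log scale. Cox6a2 climbs with Acta1 across both groups. Cox7a1 and Cox8b form a control series above an AKO series, and Acta1 reaches 27039 normalized counts in AKO.

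Cox7a1 and Cox8b are also expressed in skeletal muscle, and their levels were set beside Acta1 in each sample. Control replicate 2, with 6536 normalized counts of Acta1 against 4377 in AKO replicate 1, had the most of both isoforms. AKO replicates 2 and 3 had the most Acta1 and less Cox7a1 and Cox8b than any control sample. Within the groups, the order of Cox7a1 was that of Acta1 in both (212, 285 and 310 normalized counts in AKO beside 4377, 15282 and 27039 of Acta1), and that of Cox8b only in control. In the model with Acta1, Cox7a1 was higher by 0.098 (standard error 0.031) and Cox8b by 0.061 (standard error 0.021) on the log2 scale per doubling of Acta1. The genotype differences in that model were larger, at -1.41 (95% interval -1.82 to -0.99) for Cox7a1 and -0.83 (95% interval -1.11 to -0.55) for Cox8b, with limma adjusted p-values of 0.141 and 0.167.

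The other members moved in the same direction when Acta1 was added, and the log2 fold change was below 0 for all 10. DESeq2 with this covariate gave no adjusted p to Cox6a2 and Cox4i2 and called 5 of the other 8 lower, namely Cox7a1 (adjusted p = 6.23e-08), Cox8b (adjusted p = 7.41e-07), Cox6a1 (0.00185), Cox4i1 (0.0119) and Cox5a (0.0157). It called 2.24% of the 6919 genes with an adjusted p lower. limma with the covariate called 0 of the 10 and 0% of all genes. Cox4i1 and Cox5a were called in no other model, and Cox6a1 otherwise only by DESeq2 without control replicate 1 (adjusted p = 0.0401). Acta1 was itself higher on average in AKO, and with 3 samples a group its part and that of genotype cannot be fully told apart. Control replicate 1 held 62.2 normalized counts of Acta1, against 3498 in the next lowest sample. The slopes on Acta1, the correlations with it and the differences in this model therefore lean on that sample, and the model was not fitted without it.

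Cox4i2, the isoform of subunit IV known from lung and from oxygen sensing, was close to its control level. It lies on chromosome 2 from 152754173 to 152765037. The control samples had 49.2, 67.7 and 62.0 normalized counts and the AKO samples 81.6, 49.8 and 45.3. AKO held both the highest and the lowest sample. The log2 fold change was -0.054 with a 95% interval from -0.64 to 0.53 (limma, adjusted p = 0.973), which leaves room for a change of either sign. From 47 to 85 reads stood behind each value. The markers of mural and smooth muscle cells, in which Cox4i2 is known to be expressed, summed to 11536 to 12700 normalized counts in control and 11227 to 12140 in AKO over 9 genes. Snx6 (r = 0.985), Alox12 (r = 0.982), Nfkbib, Mcu and Mfsd9 were most like Cox4i2 over the 6 samples, and r with Acta1 was 0.0443.

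Around these isoforms, 37 other complex IV genes were tested, of which 34 were lower in AKO and 3 higher. Without a covariate, limma and DESeq2 called none of them. All 7 other nuclear subunits tested were lower in AKO, with a median log2 fold change of -0.17, against a median of 0.0070 over all genes tested, of which 48.1% were lower. The median was -0.076 without control replicate 2 and -0.28 without control replicate 1. None was called by limma or by DESeq2 without a covariate, and 1 had a limma p under 0.05 before adjustment. DESeq2 with Acta1 as a covariate called 2 of the 7 lower, namely Cox6b1 (adjusted p = 1.3e-06) and Cox7b (adjusted p = 0.0146, a gene named here after its value was seen). Cox6b1, a subunit on the intermembrane side, had 4604, 6122 and 5693 normalized counts in control and 4276, 4572 and 4733 in AKO (log2 fold change -0.26, limma, adjusted p = 0.527). Cox6c and Cox7c had log2 fold changes of -0.19 and -0.17. The groups overlapped for all 7, and 6 of the 7 were highest in control replicate 2.

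The mitochondrially encoded subunit mt-Co1, which holds the site of oxygen reduction, had 467402 to 571872 normalized counts in control and 432024 to 519615 in AKO (log2 fold change -0.15, limma, adjusted p = 0.864). The other core subunits were not analysed here. Among 29 genes for assembly and for the delivery of copper or heme, 26 were lower and 3 higher, with a median log2 fold change of -0.11. The median was -0.059 without control replicate 2 and -0.18 without control replicate 1, and 19 of the 29 genes were highest in control replicate 2. Of the 29, 6 had a p under 0.05 before adjustment, all lower, against 4.69% of all genes in that direction. AKO was below control without overlap for 8, against 8.31% of all genes. limma and DESeq2 without a covariate called 0, and DESeq2 with Acta1 called Cox17 (adjusted p = 0.0334). Cox17, a copper chaperone, had 464, 622 and 514 normalized counts in control and 392, 408 and 431 in AKO (log2 fold change -0.37, limma, adjusted p = 0.449). Smim20, an assembly factor, had a log2 fold change of -0.33, and Cox10, which makes the heme precursor of the enzyme, of -0.30, and the groups of both did not overlap.

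**Figure D5:**
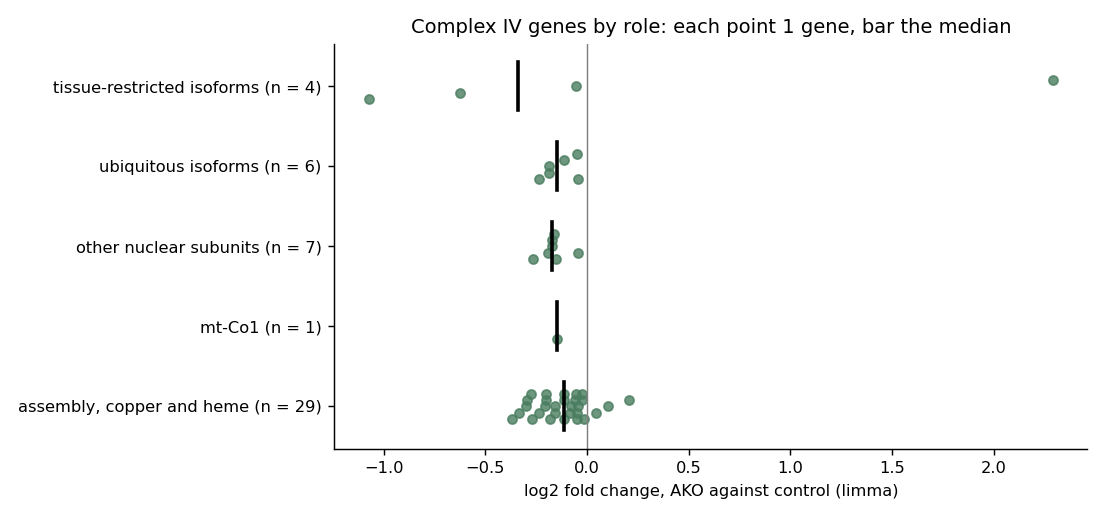
Log2 fold change of AKO against control from limma for the genes of complex IV, grouped by role (1 point for each gene, a bar for the median of the group). The restricted isoforms spread from -1.07 to 2.29, the ubiquitous isoforms and other nuclear subunits lie between -0.26 and -0.043, and the assembly genes have a median of -0.11.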

How the data were processed

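Bulk RNA-Seq of iWAT was compared between 3 control and 3 AKO samples grouped by the genotype in their titles. The members and gene lists were chosen with earlier results of these data known. According to the study's methods, the authors used STAR for alignment to GRCm38.p6 and featureCounts for counting on GENCODE M25 and tested genotype with DESeq2, and neither the strand setting nor the gene filter was given in the sources used here. The authors deposited a signal per gene, that is, reads scaled by the size factor of DESeq2 without a correction for gene length. Its columns of log2 fold change, p-value and adjusted p, deposited by the authors for AKO against control, were not used.

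Values came in whole steps of what 1 read was worth in a sample (from 0.960 in AKO replicate 1 to 1.08 in control replicate 2), so whole reads were recovered for 100% of values (tolerance 0.001 reads). Genes with a mean of at least 10 (13855 genes) were tested with limma (version 3.58.1, R 4.3.3) on log2(value + 1) with a variance trend, and p-values were adjusted over all of them by the Benjamini-Hochberg method. This setting on the deposited normalized values was taken as the main test in place of the authors' DESeq2, although the recovered reads also allowed DESeq2. The recovered reads were tested with DESeq2 (version 1.42.0), edgeR (version 4.0.16) and limma-voom, and the tests were checked on simulated data. Nothing says that samples share mice, and p-values measure the spread between pools of 2 mice. No pair of samples of a group agreed within sampling noise (the chi-square of their reads was 10.4 to 21.2 per degree of freedom).

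Positions and exonic lengths came from GENCODE M21, an earlier annotation of the same build, and promoters from RefSeq. The named genes were all 10 members, Acta1, Ucp1 and Nrg4, the 3 genes of each complex IV list with the largest absolute log2 fold change, the most highly expressed markers and the 5 genes most correlated with each restricted isoform, and not every gene so named is reported here. With words of 50 bases, 13.8% of Cox7a2l, 9.16% of Cox6a1, 9.11% of Cox5a and 6.65% of Cox4i1 also occurred in transcripts of other genes (pseudogenes among them for the first 3), so their counts are less certain, and none of Cox7a1, Cox7a2, Cox8a, Cox8b or Cox4i2 did. Other experiments of the study were not analysed here. The alternatives were other pseudocounts (0.1 and 10), filters, scalings, tests, covariates, a block for the replicate number and fits without 1 sample, and DESeq2 without 1 sample was added after the data were seen.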

Additional observations from a re-analysis of the deposited data

How the results depend on the processing

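The low log2 fold changes of Cox7a1 and Cox8b kept their direction in all 21 alternatives, between -1.42 and -0.86 and between -0.84 and -0.48. Limits come from 3 samples a group, from few reads for Cox6a2 and Cox4i2, and from muscle RNA that differed between samples. The cause of the changes below was not tested.

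Over all genes, limma called 2, and the count was 4 with a mean of at least 50, 6 with scaling to adipocyte genes, 5 with edgeR and RLE factors or without a filter, 149 with DESeq2, 0 with Acta1 or the muscle score as a covariate in limma, 169 with Acta1 in DESeq2, and 0 to 3 with single samples left out. Of the 10 members, DESeq2 called 2, and 5 with Acta1, and the other settings 0. With each sample left out DESeq2 called 2, which without control replicate 1 were Cox8b and Cox6a1.

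The median log2 fold change of the other nuclear subunits was -0.37 with Acta1 in limma, -0.36 with the muscle score and -0.37 with Acta1 in DESeq2, and that of the assembly genes -0.24, -0.23 and -0.23. With scaling to adipocyte genes these medians were -0.087 and -0.027, and with single samples left out they ranged from -0.28 to -0.076 and from -0.18 to -0.059. Cox6a2 changed sign with Acta1 in limma (-0.18), with the muscle score (-0.075) and with Acta1 in DESeq2 (-0.34). With scaling to adipocyte genes, Cox7a2 (0.040), Cox7a2l (0.033) and Cox4i2 (0.030) changed sign. With single samples left out, Cox7a2 ranged from -0.12 to 0.029, Cox7a2l from -0.12 to 0.026, Cox4i2 from -0.31 to 0.11 and the ratio of Cox4i2 to Cox4i1 from -0.18 to 0.35.

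Samples with the same replicate number are pools of different mice, and the correlations of their deviations from the group means were 0.14, -0.35 and 0.24. The labels do not say that the numbers pair them, and with 3 samples a group these correlations cannot settle it. With the number as a block, limma called 2 genes over all genes and no member (Cox7a1, log2 fold change -1.07, adjusted p = 0.0608). A block by number cannot move the mean difference of an isoform ratio, and the exact paired test over 3 pairs gave p = 0.25 for Cox7a1 to Cox7a2 (difference -1.03), Cox8b to Cox8a (-0.51) and Cox6a2 to Cox6a1 (2.48), which is the smallest p it allows, and p = 0.75 for Cox4i2 to Cox4i1 (0.13).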
